A study of Rattus norvegicus with 19 samples.

Results

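The genes described here carry, store, convert and sense vitamin A in rat liver: Rbp4, Lrat, Rdh7, Dhrs3, Cyp26a1, Cyp26b1, Crabp1, Rara and Rarb. They were chosen by name, and 9 of 9 were found by their gene symbol on the array, among 14217 genes with a probe set of their own. They are read by 10 probe sets of the 31042 tested, since Cyp26b1 has 2. A probe set is a group of short oligonucleotides that measures a stretch of 1 transcript, and where a gene has several, the one with the highest mean over all arrays was taken as its leading probe set.

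The samples were livers of Wistar Han rats collected on postnatal day 4, each hybridised to an Affymetrix Rat Genome 230 2.0 array. Timed-mated dams, 11 to 12 weeks old, received DE-71, a commercial mixture of polybrominated diphenyl ethers once used as a flame retardant, dissolved in corn oil, by gavage; dosing began on gestation day 6 and ended on postnatal day 4. There were 5 arrays of vehicle (corn oil), 5 of 0.1 mg/kg, 4 of 15 mg/kg and 5 of 50 mg/kg, and the comparisons set each dose against vehicle, and 50 against 15 mg/kg. No genetic change was made. Whether pups or dams gave the livers is not in the labels, and neither is the litter or animal behind each replicate, so the p-values below cover the spread between these arrays only. Values are log2 of the normalised hybridisation signal.

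Retinol travels in blood bound to retinol-binding protein made by hepatocytes, and is stored as retinyl esters, mostly in hepatic stellate cells. Cells oxidise retinol to retinal and then to retinoic acid, which binds nuclear receptors that switch target genes. Retinoic acid is broken down by CYP26 enzymes, whose genes are themselves among its targets, and dioxin-like compounds are known to lower liver vitamin A stores in rats.

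Some arrays went against their labels or stood apart. The libraries labelled vehicle replicate 2 and 0.1 mg/kg replicate 2 were nearly the same: over the 11867 probe sets with a mean above 7, the SD of their differences was 0.0788, against 0.194 for the next closest of 171 pairs and a median of 0.372. None of these probe sets (0) differed by more than 1 between them, against 35 in the next closest pair. Both carried kidney transcripts, with a mean of 10.09 and 10.11 over 6 of 6 measured kidney markers, as did 50 mg/kg replicate 3 at 7.12, while the other 16 arrays lay between 4.20 and 4.55. The library labelled 0.1 mg/kg replicate 1 had Cyp1a1, a target of the aryl hydrocarbon receptor (AhR), at 14.06, where the rest of its group lay between 7.19 and 8.42 and the 50 mg/kg arrays between 14.11 and 14.30. The liver marker Alb was between 15.01 and 15.06 on all 19 arrays, where 15.06 is also the highest value of any probe set. All samples are labelled female, yet the Y-linked genes Eif2s3y and Uty read 9.55 to 10.07 and 9.46 to 10.03. Transcripts of Y-linked genes would come from male pups and not from dams. Whether these probe sets also read other transcripts was not tested. Of the 5 arrays of 50 mg/kg, 4 are numbered 1 to 8, against 1 of each other group, so array number and the highest dose largely go together.

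The promoters of 4 members are shown because Cyp26a1 and Rarb are textbook targets of retinoic acid, while Cyp26b1 and Dhrs3 had the lowest unadjusted p-values at 50 mg/kg. Each is the RefSeq window of 250 bases before to 50 bases after the transcription start on the GRCr8 build, and 9 of 9 members matched a window. Capitals mark the direct repeat GTTCA, 6 bases of any kind, GTTCA, the layout of a retinoic acid response element, searched on both strands.
Cyp26a1: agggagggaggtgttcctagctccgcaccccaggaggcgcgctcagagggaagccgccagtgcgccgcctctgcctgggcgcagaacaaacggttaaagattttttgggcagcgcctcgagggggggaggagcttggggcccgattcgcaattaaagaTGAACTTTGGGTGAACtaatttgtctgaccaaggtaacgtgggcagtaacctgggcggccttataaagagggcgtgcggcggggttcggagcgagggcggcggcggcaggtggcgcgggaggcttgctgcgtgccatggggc
Rarb: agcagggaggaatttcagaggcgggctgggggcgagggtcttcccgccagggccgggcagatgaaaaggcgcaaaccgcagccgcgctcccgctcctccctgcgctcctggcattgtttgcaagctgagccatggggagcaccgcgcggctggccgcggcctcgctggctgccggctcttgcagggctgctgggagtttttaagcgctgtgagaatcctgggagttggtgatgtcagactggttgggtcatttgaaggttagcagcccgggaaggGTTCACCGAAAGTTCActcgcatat
Cyp26b1: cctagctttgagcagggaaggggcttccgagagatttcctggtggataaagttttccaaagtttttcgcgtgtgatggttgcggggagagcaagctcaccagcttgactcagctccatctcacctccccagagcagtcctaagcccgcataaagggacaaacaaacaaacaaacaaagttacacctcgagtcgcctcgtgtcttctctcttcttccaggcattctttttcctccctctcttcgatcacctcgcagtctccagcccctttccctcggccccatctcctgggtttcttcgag
Dhrs3: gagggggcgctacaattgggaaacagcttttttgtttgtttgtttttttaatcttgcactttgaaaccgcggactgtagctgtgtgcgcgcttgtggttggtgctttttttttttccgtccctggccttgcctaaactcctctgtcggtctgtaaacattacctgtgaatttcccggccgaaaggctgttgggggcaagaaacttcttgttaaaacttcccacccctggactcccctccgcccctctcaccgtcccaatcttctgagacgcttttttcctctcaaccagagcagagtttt

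The Cyp26a1 window lies on the plus strand at chr1:244883572-244883871, and its match runs from -92 to -77 before the start, on the opposite strand. The Rarb window lies on the plus strand at chr15:11336142-11336441, with the match from 26 to 41 bases after the start on the same strand. The windows of Cyp26b1 (chr4:118616127-118616426, minus strand) and Dhrs3 (chr5:162031603-162031902, plus strand) held no match. The repeat occurred in 2 of the 9 member windows and in 140 of 33469 RefSeq promoters of the same length, or 0.418%. Since Cyp26a1 and Rarb are textbook targets through such elements, the 2 of 9 is a description and not a test. A variant with GGTCA in place of GTTCA was found in 0 member windows and in 25 promoters, or 0.0747%. Repeats that pair GTTCA with GGTCA were not searched. The letters GCGTG, the core bound by the AhR and its partner, were in the windows of 6 members, Rbp4, Lrat, Cyp26a1, Cyp26b1, Crabp1 and Rdh7, and in 29.7% of all promoters. These motifs do not contain each other, and a match describes letters only.

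None of the members changed past the test at any dose: 0 of 9 had an adjusted p under 0.05 (limma, Benjamini-Hochberg over all probe sets) in any of the 4 comparisons. At 50 mg/kg against vehicle 1.61% of all probe sets passed, 1.22% higher and 0.383% lower, and in the other 3 comparisons 0.0% passed. At an unadjusted p under 0.05 there were 2 of 9 members at 50 mg/kg, Cyp26b1 and Dhrs3, against 15.4% of all probe sets. That count was 0 at 15 mg/kg against a background of 9.93%, 0 at 0.1 mg/kg against 2.46%, and 0 between 50 and 15 mg/kg against 7.79%. The groups of arrays overlapped for every member in all 4 comparisons, while the share of probe sets with groups that did not overlap was 4.69% at 50 mg/kg, 3.37% at 15 mg/kg, 0.2% at 0.1 mg/kg and 2.86% between 50 and 15 mg/kg. The median difference of the 9 members was 0.02 at 50 mg/kg, 0.03 at 15 mg/kg and 0.01 at 0.1 mg/kg, against 0.01, 0.00 and 0.01 over all genes.

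**Figure D1:**
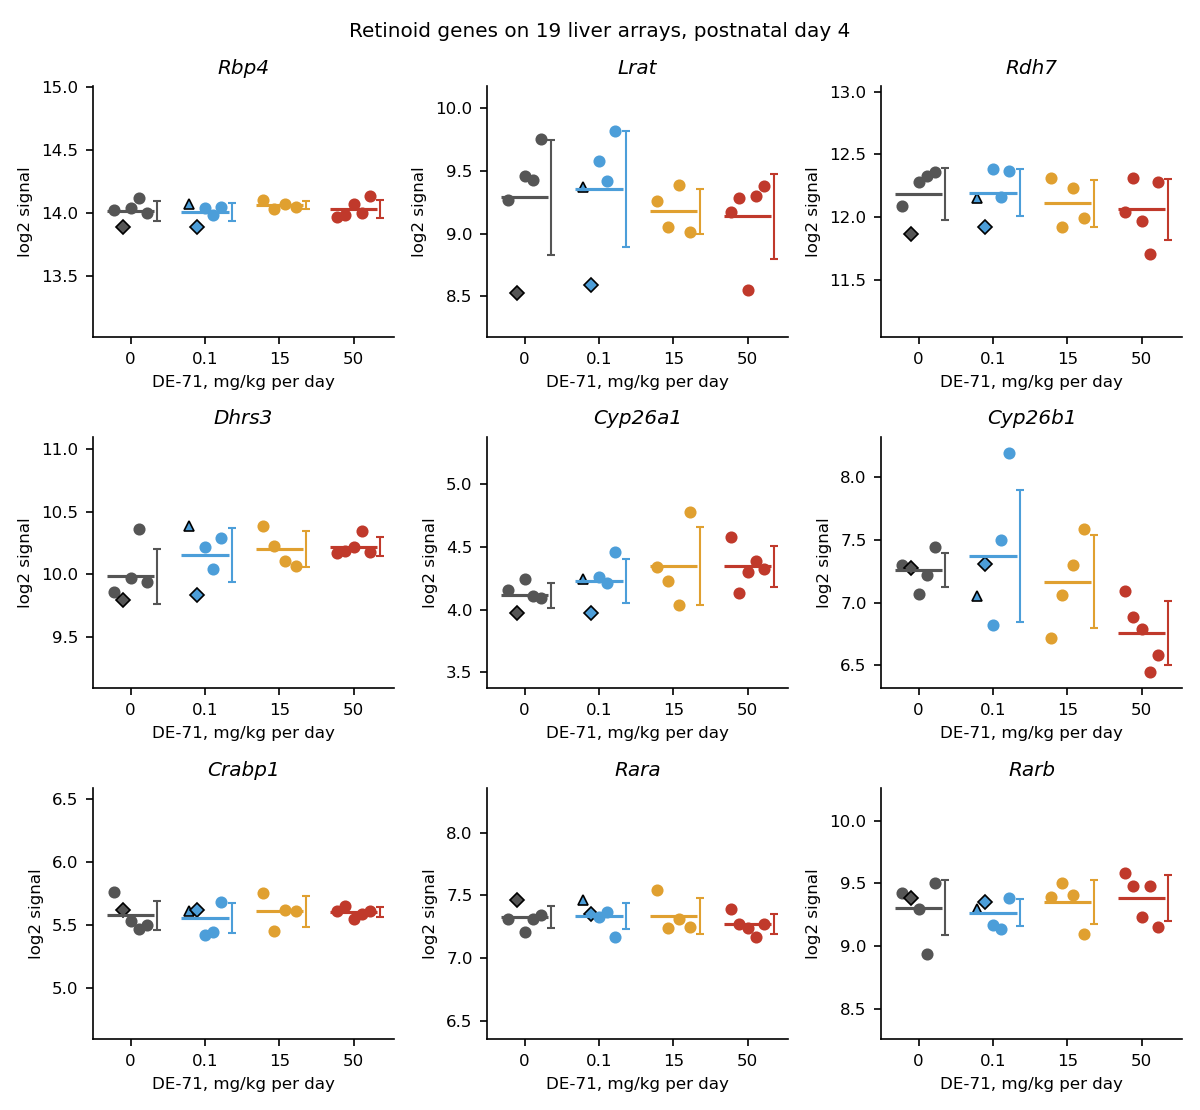
Log2 signal (y axis, each panel spanning 2 log2 units) of the 9 members by dose group (x axis), with a point per array, a line at the group mean and a bar of 1 SD. Diamonds are the nearly identical libraries labelled vehicle replicate 2 and 0.1 mg/kg replicate 2, and the triangle is 0.1 mg/kg replicate 1. The groups overlap in every panel, and Cyp26b1 is lowest on average at 50 mg/kg, at 6.76 against 7.26 in vehicle.

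Rbp4, which encodes the plasma carrier of retinol, had a steady level. Its values ran from 13.89 to 14.12 in vehicle, with a median of 14.02, and from 13.97 to 14.13 at 50 mg/kg. The groups overlapped throughout, and the lowest value of all, 13.89, occurred in both of the alike libraries. The 0.1 mg/kg arrays ran from 13.89 to 14.07 and the 15 mg/kg arrays from 14.03 to 14.10. The difference at 50 mg/kg was 0.02 (SE 0.0555, adjusted p = 0.893, limma), and its 95% confidence interval in fold was 0.934 to 1.10. The Rbp4 signal lay near the highest value on the arrays, 15.06, and whether signals there were compressed was not tested.

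Lrat encodes lecithin retinol acyltransferase, which makes the retinyl esters stored in stellate cells. In vehicle it read 9.27, 8.53, 9.46, 9.43 and 9.75, and at 0.1 mg/kg 9.37, 8.59, 9.58, 9.42 and 9.82. At 15 mg/kg the values were 9.26, 9.05, 9.39 and 9.01, and at 50 mg/kg 9.17, 9.28, 8.55, 9.30 and 9.38. In each of 3 groups a single array sat lowest, and these were the 3 arrays with kidney transcripts: 8.53 to 8.59 there, against 9.01 to 9.82 on the other 16. No other member had its 3 lowest values on those arrays. The alike libraries, 2 of the 3, also had means of 8.64 and 8.65 for exocrine pancreas and 9.15 for bile duct markers. For 50 mg/kg replicate 3 these means were 5.23 and 7.21. The array at 9.01, 15 mg/kg replicate 5, had 8.07 for pancreas, 9.52 for bile duct and 4.24 for kidney. The part of each tissue in the Lrat values was not tested. The difference at 50 mg/kg was -0.15 (SE 0.227, 95% interval -0.63 to 0.33, adjusted p = 0.782, limma), and without the 3 arrays it was -0.19 (adjusted p = 0.480). Without only the alike libraries it was -0.34 (adjusted p = 0.328). The mean of 12 of 12 stellate cell markers, a list that includes collagen genes, ranged from 8.35 to 9.79 in vehicle, 8.29 to 8.87 at 0.1 mg/kg, 8.07 to 9.16 at 15 mg/kg and 8.09 to 9.20 at 50 mg/kg. The arrays highest for it in vehicle, 15 and 50 mg/kg also carried skeletal muscle transcripts, with muscle marker means of 11.94, 7.45 and 10.36. The array highest for it at 0.1 mg/kg had a muscle mean of 5.42. The part of the stellate marker mean in the Lrat values, and of muscle in that mean, was not tested. In whole liver, fewer cells of a type and less RNA per cell cannot be told apart.

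Rdh7 and Dhrs3 act on retinol and retinal in opposite directions: Rdh7 encodes a retinol dehydrogenase, and Dhrs3 a reductase that returns retinal to retinol and is induced by retinoic acid. Rdh7 read 12.09, 11.87, 12.28, 12.33 and 12.36 in vehicle and 12.04, 12.31, 11.97, 11.71 and 12.28 at 50 mg/kg. Those groups overlapped almost entirely, with a difference of -0.12 (SE 0.128, 95% interval -0.39 to 0.15, adjusted p = 0.676, limma). The other doses lay between 11.92 and 12.38 for Rdh7.

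Dhrs3 read 9.86, 9.80, 9.97, 10.36 and 9.94 in vehicle, 10.39, 9.84, 10.22, 10.04 and 10.29 at 0.1 mg/kg, 10.39, 10.23, 10.11 and 10.07 at 15 mg/kg, and 10.17, 10.19, 10.22, 10.35 and 10.18 at 50 mg/kg. Of the vehicle arrays 4 lay at or below 9.97, and replicate 4, at 10.36, was as high as the highest treated arrays. All 9 arrays of the 2 upper doses were above those 4. The difference was 0.24 at 50 mg/kg (SE 0.110, 95% interval 0.01 to 0.47, unadjusted p = 0.0446, adjusted p = 0.312, limma), 0.21 at 15 mg/kg (SE 0.116, adjusted p = 0.544) and 0.17 at 0.1 mg/kg (SE 0.110, adjusted p = 1.0). It missed the threshold at each dose. By array number the 50 mg/kg difference was 0.38 among arrays 1 to 8, with 4 arrays against 1, and 0.16 among arrays 9 to 20, with 1 against 4, so neither set has replicates on both sides. With array number in the model it was 0.17 (adjusted p = 0.618), and without the alike libraries 0.19 (adjusted p = 0.412). At 0.1 mg/kg the Dhrs3 difference was 0.15 (adjusted p = 0.974) without the alike libraries and the library labelled 0.1 mg/kg replicate 1.

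Cyp26a1 encodes the main retinoic acid hydroxylase of the liver, and its promoter carries the repeat printed above. Its signal was low and below the array medians of 6.06 to 6.16: 4.16, 3.97, 4.24, 4.11 and 4.09 in vehicle, 4.24, 3.97, 4.26, 4.21 and 4.46 at 0.1 mg/kg, 4.34, 4.23, 4.04 and 4.78 at 15 mg/kg, and 4.58, 4.13, 4.30, 4.39 and 4.32 at 50 mg/kg. The highest value was a single 15 mg/kg array at 4.78, and 4 of 5 arrays at 50 mg/kg lay above the highest vehicle array. The differences were 0.23 at 50 mg/kg (SE 0.119, 95% interval -0.02 to 0.48, adjusted p = 0.367, limma) and 0.23 at 15 mg/kg (SE 0.126, 95% interval -0.03 to 0.50, adjusted p = 0.542). The deposited values hold no detection calls, so whether a signal this low was above background is not known.

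Cyp26b1, the related hydroxylase found in many tissues outside the hepatocyte, had the largest difference of the members. Its leading probe set read 7.30, 7.28, 7.07, 7.22 and 7.44 in vehicle, 7.05, 7.31, 6.82, 7.50 and 8.19 at 0.1 mg/kg, 6.72, 7.06, 7.30 and 7.59 at 15 mg/kg, and 7.09, 6.89, 6.79, 6.45 and 6.58 at 50 mg/kg. At 50 mg/kg 4 of 5 arrays lay below the lowest vehicle array, and the fifth, at 7.09, just above it. The difference at 50 mg/kg was -0.50 (SE 0.206, 95% interval -0.93 to -0.07, unadjusted p = 0.0263, adjusted p = 0.253, limma), or 1.41-fold lower, and it missed the threshold. At 15 mg/kg it was -0.10 (SE 0.219, 95% interval -0.56 to 0.36, adjusted p = 0.888), and 50 against 15 mg/kg gave -0.40 (SE 0.219, 95% interval -0.86 to 0.06, adjusted p = 0.696). The spread was wider in the 0.1 mg/kg group (SD 0.524) than in vehicle (SD 0.133). The other probe set of Cyp26b1, with a lower signal of 5.07 to 5.74, differed by -0.12 at 50 mg/kg (SE 0.0984, adjusted p = 0.576). By array number the 50 mg/kg difference of the leading probe set was -0.49 among arrays 1 to 8, with 4 arrays against 1. Among arrays 9 to 20 it was -0.67, with 1 against 4, so neither set has replicates on both sides. At 15 mg/kg the same split gave -0.58 (1 against 1) and 0.06 (3 against 4). Over all alternatives the 50 mg/kg difference ran from -0.58 to -0.31 (adjusted p from 0.0751 to 0.594, limma). Without the alike libraries it was -0.50 (adjusted p = 0.338).

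Crabp1, which encodes a cytosolic carrier of retinoic acid, was also below the array medians. It read 5.76, 5.62, 5.53, 5.47 and 5.50 in vehicle and 5.61, 5.65, 5.55, 5.59 and 5.61 at 50 mg/kg. Every array at 50 mg/kg fell inside the vehicle range, and the difference was 0.03 (SE 0.0713, 95% interval -0.12 to 0.18, adjusted p = 0.884, limma). At the other doses the values ran from 5.42 to 5.75.

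Rara and Rarb encode the retinoic acid receptors alpha and beta, and Rarb is also a target of retinoic acid through the element in its promoter. Rara read 7.31, 7.46, 7.21, 7.31 and 7.34 in vehicle and 7.39, 7.27, 7.24, 7.17 and 7.27 at 50 mg/kg, a difference of -0.06 (SE 0.0722, 95% interval -0.21 to 0.09, adjusted p = 0.726, limma). Rarb read 9.42, 9.38, 9.30, 8.94 and 9.50 in vehicle, 9.30, 9.35, 9.17, 9.14 and 9.38 at 0.1 mg/kg, 9.39, 9.50, 9.41 and 9.10 at 15 mg/kg, and 9.58, 9.48, 9.23, 9.48 and 9.15 at 50 mg/kg. All 4 Rarb groups overlapped, and the lowest array was a vehicle one at 8.94. The Rarb difference was 0.08 at 50 mg/kg (SE 0.108, 95% interval -0.15 to 0.30, adjusted p = 0.771) and 0.04 at 15 mg/kg (adjusted p = 0.903). Across Rara and Rarb, the intervals at 50 mg/kg span folds from 0.864 to 1.23.

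**Figure D2:**
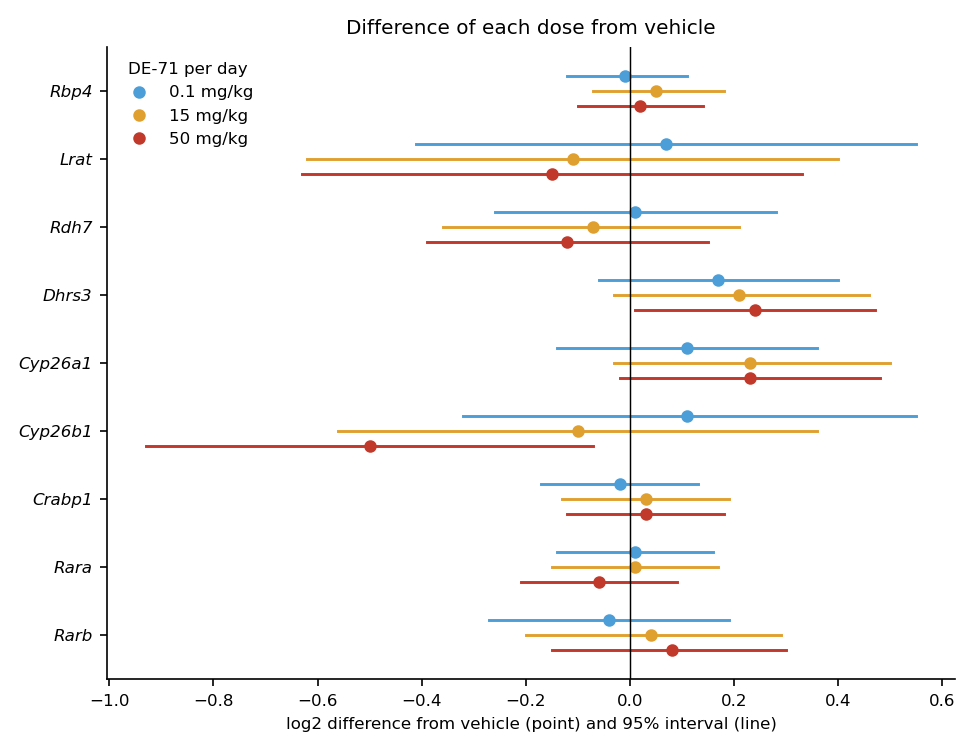
Log2 difference from vehicle (x axis) of the 9 members at each dose, with 95% confidence intervals from limma. Intervals of 7 members cross 0 at 50 mg/kg, and those of Cyp26b1 (-0.93 to -0.07) and Dhrs3 (0.01 to 0.47) do not, before adjustment over all probe sets.

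Other genes of vitamin A handling were read from 5 lists of 59 genes, 48 of them measured. At 50 mg/kg 1 of the 48 passed, Rdh10, which rose, and 0 fell, against 1.22% higher and 0.383% lower over all probe sets. No listed gene passed in the other comparisons. An unadjusted p under 0.05 was found for 9 of the 48 at 50 mg/kg against 15.4% of all probe sets, for 6 at 15 mg/kg against 9.93%, for 0 at 0.1 mg/kg against 2.46% and for 4 between 50 and 15 mg/kg against 7.79%. The median difference of the 48 at 50 mg/kg was 0.03. Rdh10 encodes the retinol dehydrogenase that supplies retinal for retinoic acid synthesis in embryos. It read 8.19, 7.99, 8.43, 8.30 and 8.29 in vehicle (8.24 ± 0.162, SD, n = 5) and 8.81, 8.68, 8.64, 8.87 and 8.65 at 50 mg/kg (8.73 ± 0.104, SD, n = 5), so that these groups did not overlap. At 0.1 mg/kg it read 8.71, 8.10, 8.47, 8.28 and 8.57, and at 15 mg/kg 8.32, 8.51, 8.44 and 8.22, between the others and overlapping both vehicle and, at 0.1 mg/kg, the 50 mg/kg group. The overlap with 50 mg/kg came only from the library labelled 0.1 mg/kg replicate 1, with the high Cyp1a1, at 8.71. The rise at 50 mg/kg was 0.49 (SE 0.105, 1.41-fold, 95% interval 1.21 to 1.64, adjusted p = 0.0262, limma). A second, weaker Rdh10 probe set gave 0.17 (adjusted p = 0.343), and with array number in the model the leading one gave 0.44 (adjusted p = 0.148). The call was kept without the alike libraries (0.43, adjusted p = 0.0255) and lost in 5 of the 19 fits that left out an array: those without vehicle replicate 1 (0.0576), 2 (0.0709) or 5 (0.0542), or 50 mg/kg replicate 1 (0.0739) or 4 (0.0714), each given as adjusted p. It was also lost without the muscle-bearing vehicle replicates 1 and 5 and 50 mg/kg replicates 2 and 3 (0.54, adjusted p = 0.276), where 0 probe sets passed, and without vehicle replicates 2 and 4 and 0.1 mg/kg replicate 1 (0.43, adjusted p = 0.101), making 8 of 33 alternatives with the array number model.

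Aldh1a1, which oxidises retinal to retinoic acid, had the largest difference of the listed enzymes. It read 9.32, 12.13, 8.59, 8.50 and 8.46 in vehicle, 10.45, 12.12, 8.52, 8.76 and 8.65 at 0.1 mg/kg, 10.05, 10.01, 9.54 and 9.37 at 15 mg/kg, and 11.05, 10.60, 11.32, 10.43 and 9.81 at 50 mg/kg. The alike libraries, which carry kidney transcripts, held the highest values, 12.13 and 12.12, and the library labelled 0.1 mg/kg replicate 1, with the high Cyp1a1, the highest of the rest of its group at 10.45. With all arrays the difference at 50 mg/kg was 1.24 (SE 0.694, adjusted p = 0.403, limma) and did not pass. Without the alike libraries it was 1.93 (adjusted p = 0.0169), and without the 3 arrays with kidney transcripts 1.76 (adjusted p = 0.0406), fits chosen after the values were seen. Leaving out vehicle replicate 2 alone gave 1.93 with an adjusted p of 0.137, and array number in the model 0.90 (adjusted p = 0.697).

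**Figure D3:**
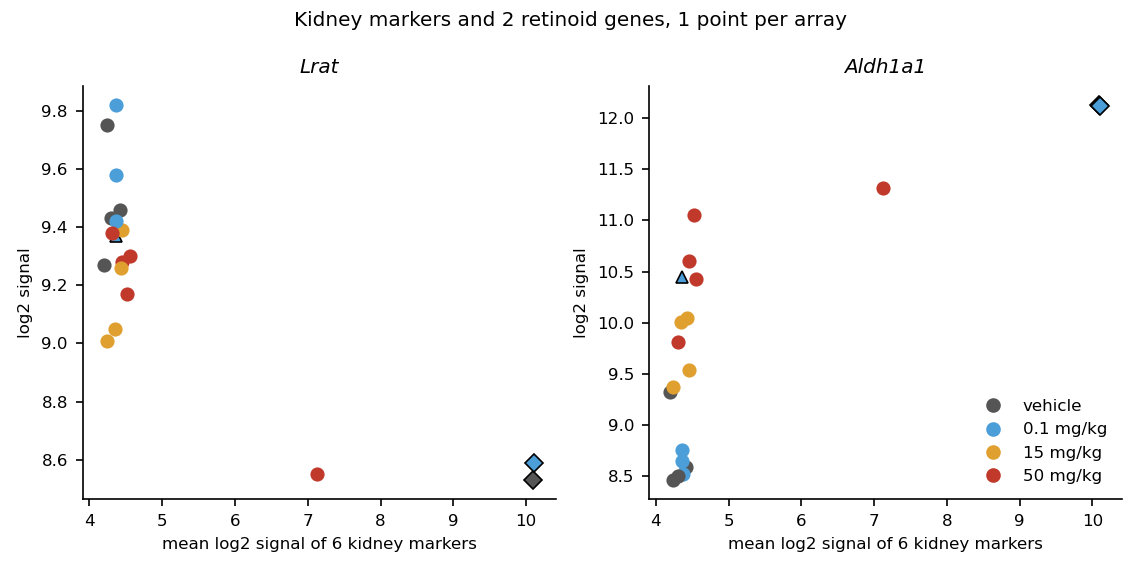
Log2 signal of Lrat (left) and Aldh1a1 (right) on the y axes against the mean log2 signal of the 6 kidney markers on the x axes, with a point per array coloured by dose group; diamonds and the triangle mark the same libraries as in the plot of the members by array. The 3 arrays with kidney marker means of 7.12, 10.09 and 10.11 have the lowest Lrat, 8.53 to 8.59, and the highest Aldh1a1, 11.32 to 12.13.

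The other retinol and retinal enzymes with the largest differences, Dhrs7 at -0.49 and Adh4 at 0.50, had adjusted p-values of 0.315 and 0.455 at 50 mg/kg. Among carriers and storage genes 0 of 10 passed: Rbp7, a cellular retinol-binding protein, differed by 0.89 (SE 0.284, adjusted p = 0.129), Rlbp1 by 0.28, Dgat1 by 0.27 and Rbp2 by 0.24. Among genes for retinyl ester hydrolases 0 of 7 passed, with Lpl, the lipoprotein lipase that also releases retinol from circulating esters, at 0.80 (SE 0.224, adjusted p = 0.0805), Ces1d at 0.24, Lipc at -0.22 and Pnpla2 at -0.20. Among the other nuclear receptors 0 of 7 passed: Rora differed by 0.28, Rxrg by 0.23, Nr2f1 by -0.23 and Nr2f2 by -0.26. Weaker probe sets gave -0.03 for Rora, 0.07 for Rxrg, and -0.64 (adjusted p = 0.387) and -0.12 for Nr2f2. Among genes known to respond to retinoic acid 0 of 7 passed, with Fgf21 at -1.07 (adjusted p = 0.514), Ucp2 at -0.47, Ncoa3 at 0.21 (adjusted p = 0.108) and Nrip1 at 0.20. A second Ncoa3 probe set went the opposite way, at -0.14 (adjusted p = 0.666). The groups at 50 mg/kg and vehicle did not overlap for the leading probe sets of Rlbp1, Lpl and Ncoa3 and the Nr2f2 probe set at -0.64. Over all probe sets the share without overlap was 4.69%. Rlbp1 had a low signal without detection calls, 3.79 to 4.00 in vehicle and 4.02 to 4.36 at 50 mg/kg. The vehicle means of Rbp7, Ces1d and Adh4, at 5.69, 5.73 and 5.13, also lay below the array medians.

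**Figure D4:**
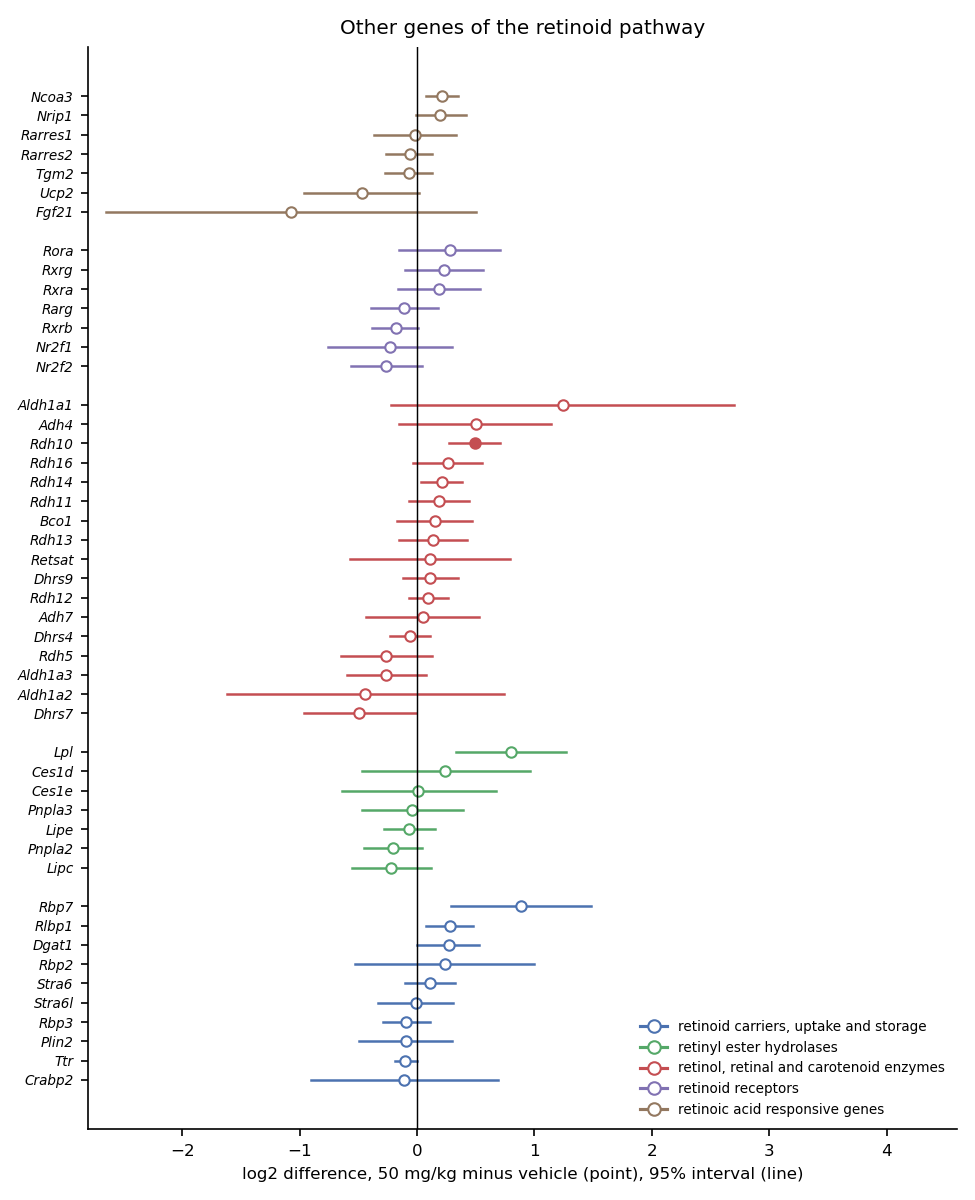
Log2 difference at 50 mg/kg against vehicle (x axis) of the 48 measured genes of the 5 lists, coloured by list, with 95% confidence intervals from limma, filled where the adjusted p was under 0.05. Only Rdh10 (0.49) is filled, and Aldh1a1 (1.24) and Fgf21 (-1.07) lie farthest from 0 with the widest intervals.

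For scale, the AhR targets Cyp1a1, Cyp1a2 and Nqo1 rose by 6.51, 5.75 and 2.85 on the log2 scale at 50 mg/kg (adjusted p = 0.00123, 0.00345 and 0.00123, limma). The same arrays thus resolved large changes at that dose. At 15 mg/kg Cyp1a1 rose by 5.9 without overlap with vehicle, yet missed the threshold (adjusted p = 0.0724, limma). Cyp1a2 and Nqo1 also missed it there (adjusted p = 0.419 and 0.366). Missing the threshold at 15 mg/kg therefore does not show that a gene was unchanged. The simulated shifts used to test the fit were about as large as the largest member difference, that of Cyp26b1, or larger. Whether the smaller differences of the other members could be detected was not tested.

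The members varied from array to array largely apart from each other. Over the 36 pairs of members, correlations of their deviations from the dose group means on 19 arrays ran from -0.55 to 0.73, with a median of 0.05. The highest were Rbp4 with Dhrs3 (Pearson r = 0.73, Spearman rho = 0.67) and Lrat with Rdh7 (r = 0.71, rho = 0.71). These fell to 0.60 and 0.54 without the alike libraries, and Rbp4 with Lrat went from 0.56 to 0.09, so that this last relation rested on those libraries. These arrays share their tissue pieces and normalisation, and the correlations are descriptions only.

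Each member was also set beside the genes outside the list whose deviations were most like its own. These correlations are the highest among all the genes compared. How high the best of so many unrelated genes would reach on so few arrays was not tested. The genes are therefore listed as descriptions, not as partners of the members. Lrat was most like Ak7 (r = 0.94), Man1a1 (0.93) and Bmp5 (0.93), and the first of these fell to 0.76 on the 16 arrays without kidney transcripts. Rdh7 was most like Shpk, Lipc and Gcgr (each 0.90), the latter genes for hepatic lipase and the glucagon receptor, and kept 0.89 with Lipc on those 16 arrays. Rbp4 was most like Pex11g, Copz2 and Pemt (0.89 to 0.90), and Dhrs3 most like Ifi27 (0.87), Icmt and Pmpca. For Cyp26b1 the likest gene was Rab17 (0.84), for Cyp26a1 Itpkc (0.83), for Rara Nradd (0.83) and for Crabp1 Rnf122 (0.79). Rarb was most like the fibrinogen genes Fgg (0.81) and Fgb (0.80) and Pgrmc1 (0.80), with 0.85 for Fgg on the 16 arrays.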

How the data were processed

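The authors deposited log2 values normalised with RMA, per the submitters' processing notes; its version and the annotation used are not given in the sources used here. Per the labels, RNA came from the left lateral lobe. Array intensities give no read depth, so precision rests on the number of arrays. Of 31099 probe sets, 57 controls were left out, leaving 31042: 20826 had a single gene symbol, 436 several and 9780 none, and 20758 symbols matched RefSeq. Genes were named from GEO's platform annotation, which can be old.

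Limma 3.58.1 (R 4.3.3) fitted 1 mean per dose group over 19 arrays, with 15 residual and 2.78 prior degrees of freedom, two-sided; p-values were adjusted by Benjamini-Hochberg across the full array, with a threshold of 0.05. Confidence intervals of 95% use limma's SE. The fit was tested on simulated data. The package that the series' design text names was not used.

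Besides the members, the text names listed genes that passed, up to 4 more in each list by size of difference at the highest dose, and for each member the 3 likest genes. The members and all lists were chosen with earlier results of these data known. Alternatives covered normalisation, filters, blocks, weights and left-out arrays, and 3 of them were chosen after seeing the data. Marker lists were hepatocyte, stellate cell, kidney, exocrine pancreas, skeletal muscle, erythroid, neutrophil and bile duct.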

Additional observations from a re-analysis of the deposited data

Results flagged for a closer look

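Of 128 groups of arrays looked at for the members and the named genes, 13 (10.2%) held an array far from the others of its group. For unrelated groups chance gives about 1 in 20. These groups share the same arrays, and many of the genes were named for large differences, so the comparison with that rate is no test. Among the members the single case was Lrat in 50 mg/kg replicate 3, at 8.55 with the nearest array at 9.17, on an array with kidney transcripts. The library labelled vehicle replicate 2 stood above its group for Aldh1a1 (12.13, nearest 9.32), Nr2f2 (11.87) and Nqo1 (8.55), and the library labelled 0.1 mg/kg replicate 2 for Nr2f1 (7.28) and Nr2f2 (11.90). The library labelled 0.1 mg/kg replicate 1 stood above its group for Cyp1a1 (14.06), Cyp1a2 (13.80), Nqo1 (10.64) and Rora (8.09). Rbp2 stood high in 15 mg/kg replicate 5 (10.41, nearest 8.08), an array with marker means of 8.07 for exocrine pancreas and 9.52 for bile duct. The alike libraries read 7.49 and 7.39 for Rbp2, with pancreas means of 8.64 and 8.65 and bile duct means of 9.15. The remaining cases were Rxrg in 50 mg/kg replicate 4 (7.13, lowest) and Nrip1 in vehicle replicate 3 (7.86, lowest). What part the transcripts of other tissues had in these values was not tested.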

How the results depend on the processing

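Over 33 alternatives, 19 of which left out an array, the count of members past the threshold was 0 in every comparison. Of 1180 member values none crossed the threshold, 1039 kept their direction and 56 reversed, all small differences that had not passed; the cause was not tested. The others have no direction to keep, since the value rounds to 0.00 with all arrays (64, Cyp26a1 and Crabp1 between 50 and 15 mg/kg) or under the alternative (21). Differences that reversed at 50 mg/kg were Rbp4 (-0.01 with array weights, cyclic loess and both sets that drop the alike libraries, -0.02 without the kidney arrays), Lrat (0.14 without the muscle-bearing vehicle replicates 1 and 5 and 50 mg/kg replicates 2 and 3), Rarb (-0.02 without vehicle replicates 2 and 4 and 0.1 mg/kg replicate 1), Crabp1 (-0.05), Ces1d (-0.13) and Rora (-0.01), the last 3 with array number as a block. At 15 mg/kg they were Lrat (0.04, muscle arrays out), Rarb (-0.05, vehicle 2 and 4 and 0.1 mg/kg 1 out) and Crabp1 (-0.02, loess). At 0.1 mg/kg they were Rbp4 (0.01, median centring), Lrat (-0.14) and Rdh7 (-0.04) with vehicle 2 and 4 and 0.1 mg/kg 1 out, Rdh7 (-0.01, array weights), Rarb (0.06) and Crabp1 (0.02) with muscle arrays out, and Aldh1a1 (-0.07 without vehicle 2 and 0.1 mg/kg 1 and 2, -0.04 with muscle arrays out). Between 50 and 15 mg/kg they were Lrat (0.10 without kidney and 0.10 without muscle arrays), Rarb (-0.04 block, -0.02 weights, -0.01 loess) and Dhrs3 (-0.03 block, -0.02 loess). The muscle arrays left out here are only the vehicle and 50 mg/kg replicates named above. The 15 mg/kg replicates 2, 4 and 5 stayed in, with skeletal muscle marker means of 7.38, 8.58 and 7.45.

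Leaving out 1 array at a time, the differences that changed sign ranged as follows. At 50 mg/kg Rbp4 ran from -0.01 to 0.05 and Rarb from -0.01 to 0.13. At 15 mg/kg Lrat ran from -0.30 to 0.01, Cyp26b1 from -0.24 to 0.05, Rarb from -0.05 to 0.13, Rara from -0.06 to 0.04 and Crabp1 from -0.02 to 0.08. At 0.1 mg/kg Rbp4 ran from -0.04 to 0.02, Lrat from -0.12 to 0.26, Cyp26b1 from -0.09 to 0.25, Rarb from -0.13 to 0.01, Rara from -0.02 to 0.05, Crabp1 from -0.05 to 0.03, Rdh7 from -0.07 to 0.08 and Aldh1a1 from -0.30 to 0.99. Between 50 and 15 mg/kg Lrat ran from -0.10 to 0.10, Rarb from -0.05 to 0.09, Rdh7 from -0.11 to 0.04 and Dhrs3 from -0.02 to 0.09, while Cyp26a1 (-0.11 to 0.14) and Crabp1 (-0.06 to 0.04) lay on both sides of a difference of 0.00.

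The count of probe sets past the threshold at 50 mg/kg, 499, became 57 with the array number block, 921 with array weights, 300 without the kidney arrays, 187 without vehicle 2 and 4 and 0.1 mg/kg 1, and 0 without the muscle arrays (4791 had an unadjusted p under 0.05 with all arrays). Leaving out 1 array at a time gave 178 (without 50 mg/kg replicate 1) to 704. At 15 mg/kg the count of 0 (3083 unadjusted) reached at most 13, and between 50 and 15 mg/kg (2417 unadjusted) at most 2. Of the 48 other retinoid genes, 0 to 3 passed at 50 mg/kg.

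The titles' replicate numbers did not pair the arrays: over 27 pairs with the same number, deviations correlated between -0.47 and 0.89, with a median of 0.0, 11 above 0.1, and 6 of 19 arrays were closest to their own number. With the replicate as a block, 0 of 9 members passed in each comparison, 511 probe sets passed at 50 mg/kg, and Rdh10 gave 0.49 (adjusted p = 0.0236). Rdh10 had adjusted p-values from 0.0108 to 0.276, and Rbp7 and Lpl passed in some alternatives. The filter at the median level left out Cyp26a1 and Crabp1 among the members, and Rbp7, Rlbp1, Ces1d and Adh4 among the other named genes. Their signals, without detection calls, are the least certain.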

Other observations

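Marker means over the arrays show what else the liver pieces held. Hepatocyte markers were level, between 14.59 and 14.66 on all arrays. Skeletal muscle markers ranged from 4.49 to 11.94 in vehicle, 4.40 to 5.42 at 0.1 mg/kg, 5.08 to 8.58 at 15 mg/kg and 4.71 to 10.36 at 50 mg/kg. The group medians for muscle, in the same order, were 5.37, 4.93, 7.41 and 5.44. Exocrine pancreas markers reached 8.64 in vehicle, 8.65 at 0.1 mg/kg and 8.07 at 15 mg/kg, but 5.31 at most at 50 mg/kg. Bile duct markers ranged from 6.97 to 9.15 in vehicle, 7.01 to 9.15 at 0.1 mg/kg, 6.65 to 9.52 at 15 mg/kg and 6.52 to 7.21 at 50 mg/kg. Neutrophil markers ranged from 11.76 to 12.63 in vehicle and 11.30 to 12.05 at 50 mg/kg, and erythroid markers from 10.08 to 11.85 and 10.11 to 11.82. Their part in the retinoid gene values was not tested.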
